A study of Zea mays with 2 samples.

Results

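The genes described are a set of transcripts of intermediate abundance in wild-type maize endosperm that were far lower in the mutant. A gene model was taken when its wild-type value lay from 20 to below 200 RPKM (reads per length of gene, relative to the reads of the library) and its dek44/wild-type ratio was 0.25 or less. This gave 123 of 41406 gene models, or 123 of the 5679 in that wild-type window (2.17%). The genes were thus chosen by the same dek44 and wild-type values that are described, so their loss is a description with no test. The window lies below the level of most zein genes and of the main genes of starch synthesis.

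The samples were endosperm of maize (Zea mays) kernels taken 15 days after pollination, from dek44, a defective kernel mutant, and from wild type. There was 1 library per genotype among the values used, although the series text speaks of triplicates, so there is no replicate check on any difference, and intervals cover counting error only. The labels give no allele, genetic background or number of pooled kernels. Nothing beyond tissue and stage is given as shared by both genotypes.

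Maize endosperm at this stage fills with storage products. Zeins are made on the rough endoplasmic reticulum and packed into protein bodies, and starch is made in amyloplasts. A defective kernel mutant is one in which the development of endosperm and often of the embryo is impaired. In whole tissue, fewer cells of a type and less RNA per cell cannot be told apart.

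Depth recovered from the values was 22612657 reads in dek44 and 20861135 reads in wild type, if no factor of 3 common to all read numbers was lost, in which case intervals would be narrower. RPKM is a share of a library. Of the 30136 genes with at least 1 RPKM in either library, those above 0 in wild type had a median dek44/wild-type ratio of 1.67. The losses below are therefore measured against a general shift upwards. Markers of starchy endosperm summed to 36708 RPKM in dek44 and 160350 RPKM in wild type, and 11 of 12 were lower in dek44, the exception being 1 of 2 models named pbf1. Markers of the basal transfer layer summed to 3803 and 749.98 RPKM in dek44 and wild type, with 8 of 8 higher in dek44 (7 of 8 with the median ratio of expressed genes set to 1), and those of the embryo-surrounding region to 118.4 and 8.27 RPKM, with 2 of 2 higher. The 4 embryo markers summed to 473 RPKM in dek44 and 403 RPKM in wild type. The 5 aleurone markers summed to 112 and 200.3 RPKM, of which Nkd1 alone held 81.3 and 171.4 RPKM. Of these 5, 2 were higher in dek44 (1 with the median ratio of expressed genes set to 1). Of the aleurone markers r1 was at 0 in dek44 and c1 at 0 in wild type, and the 2 green tissue markers stayed below 1 RPKM in both. None of these markers is among the 123 genes, and the part of cell composition in their loss was not tested.

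**Figure D1:**
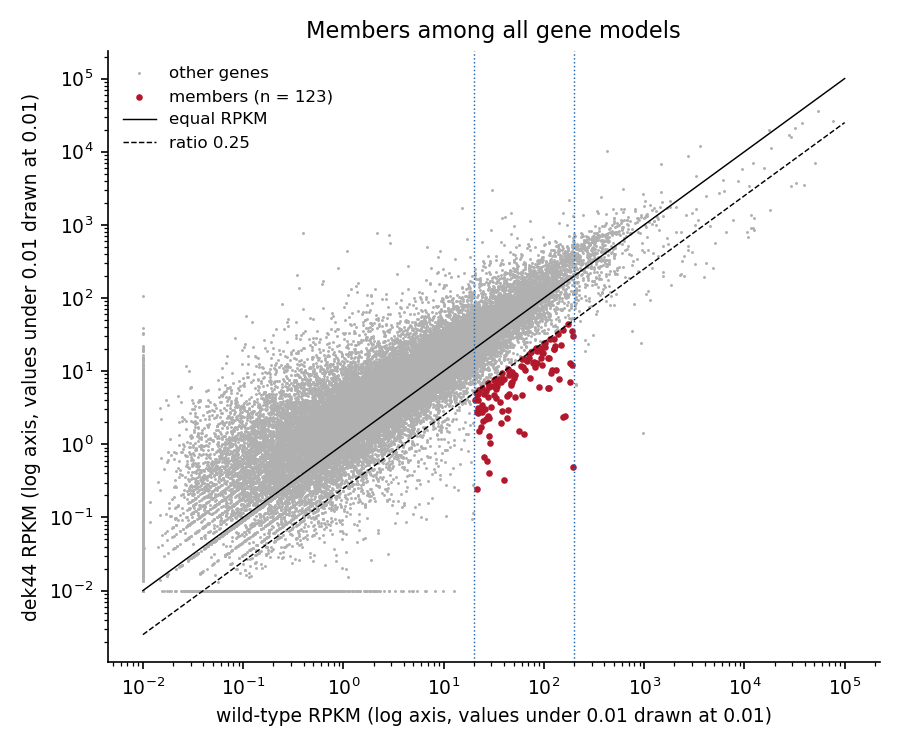
Wild-type RPKM (horizontal) against dek44 RPKM (vertical) for 41406 gene models, both on log axes, with the 123 chosen genes in red, the window of 20 to 200 RPKM between dotted lines and a ratio of 0.25 as a dashed line. The red points form the lower edge of the cloud within the window, and most of the cloud in that window lies above the line of equal RPKM on this scale, though not with the median ratio of expressed genes set to 1 (1869 of 5679 genes).

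The 123 genes summed to 1173 RPKM in dek44 and 8132 RPKM in wild type, which is 0.0889% of all RPKM in dek44 and 0.587% in wild type. Over all genes of the window the sums were 477127 RPKM in dek44 and 297640 RPKM in wild type. The median ratio of a gene in the window was 1.33, and 28.3% of its genes had a ratio below 1. On the RPKM as deposited, 192 genes of the window (3.38%) had a ratio of 4 or more, against the 123 at 0.25 or less. This order turned with the scaling, to 59 and 278 genes with the median ratio of expressed genes set to 1, and to 72 and 240 genes when scaled without the 100 most abundant genes. The median ratio of the window was then 0.797 and 0.8604. The 10 genes of the set most abundant in wild type held 21.9% of its wild-type sum, a share that the limit of 200 RPKM holds down.

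Within the window the share of genes at 0.25 or less was 1.82% (67 of 3678) for wild-type levels of 20 to 50 RPKM, 2.16% (29 of 1344) for 50 to 100 and 4.11% (27 of 657) for 100 to 200. Outside the window it was 2.22% (417 of 18765) for 1 to 20 RPKM, 3.61% (18 of 499) for 200 to 1000 and 35.7% (35 of 98) at 1000 or more. The share in the window as a whole was thus close to the 2.37% of all genes with at least 1 RPKM in wild type, and far below that of the most abundant transcripts.

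**Figure D2:**
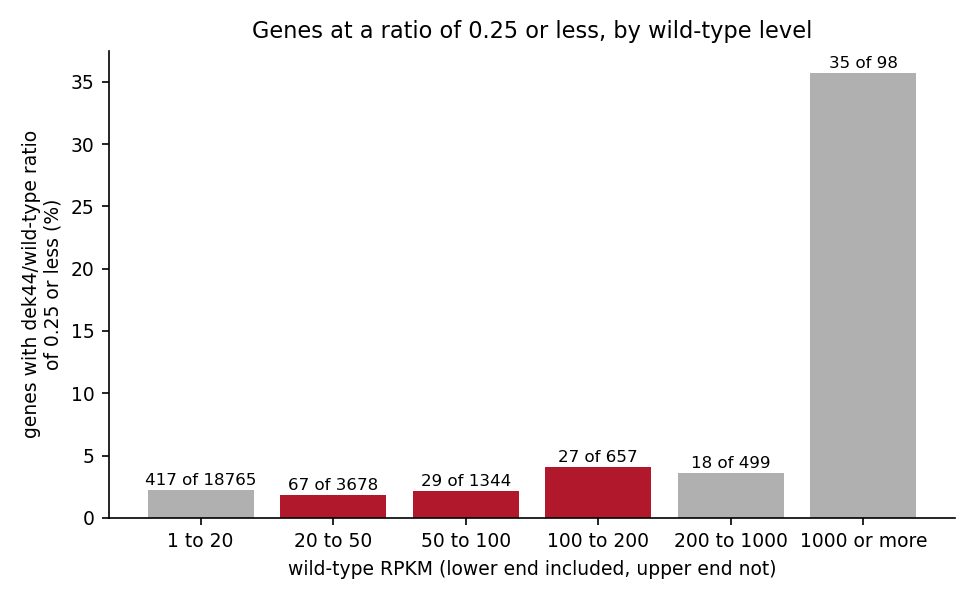
Percent of genes with a dek44/wild-type ratio of 0.25 or less (vertical, from 0) in 6 classes of wild-type RPKM (horizontal), with the number of such genes and of all genes above each bar; red bars make up the window. The bars stay between 1.82% and 4.11% below 1000 RPKM and reach 35.7% at 1000 RPKM or more.

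Loss among the 123 genes ranged from 4.01-fold to 398-fold, with a median of 6.21-fold. Of them 40 were 4-fold to 5-fold lower in dek44, 49 were 5-fold to 10-fold, 21 were 10-fold to 20-fold, 11 were 20-fold to 100-fold and 2 were over 100-fold lower. The median loss in the 3 parts of the window was 6.21-fold for wild-type levels of 20 to 50 RPKM, 5.77-fold for 50 to 100 and 7.36-fold for 100 to 200. All 3 parts were cut at the same ratio of 0.25, so the likeness of these medians says little about loss by level. The 95% counting interval of the ratio lay at or below 0.25 for 86 genes and reached above it for 37, of which 33 were less than 5-fold lower. Conversely, 50 other genes of the window had a ratio above 0.25 with an interval that reached it.

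At the edge of the set, the cystatin gene cc6 (GRMZM2G401328) had a ratio of 0.2497 and stood just inside. PP2C13 (GRMZM2G159811), at 12.7 RPKM in dek44 and 50.8 RPKM in wild type, had a ratio of 0.25001 and stood just outside. The next inside were GRMZM2G106445 (0.2487), GRMZM2G300965 (0.2469) and GRMZM2G158197 (0.2464), and the next outside were GRMZM2G119873 (0.2503), GRMZM2G105331 (0.2511) and GRMZM2G390150 (0.2533). By wild-type level, the lowest genes inside were CA2P7 (20.7 RPKM) and GRMZM2G147966 (21.2 RPKM). Just below the window lay GRMZM2G306643, at 1.96 RPKM in dek44 and 19.8 RPKM in wild type, and AC208440.3_FG004, at 0.113 RPKM in dek44 and 19.8 RPKM in wild type. Just above it lay GRMZM2G085260, at 6.40 RPKM in dek44 and 206.9 RPKM in wild type, and GRMZM2G119322, at 6.76 RPKM in dek44 and 208.6 RPKM in wild type. The set is therefore a slice of a continuous distribution, with genes of like loss on either side of each limit.

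**Figure D3:**
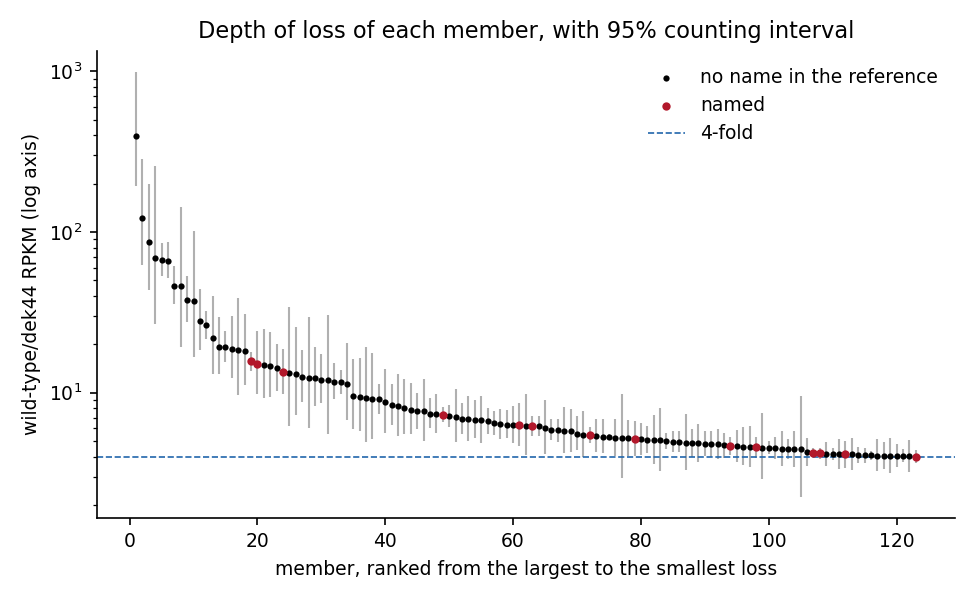
Wild-type/dek44 RPKM (vertical, log axis) of the 123 genes ranked from the largest to the smallest loss (horizontal), with the 95% counting interval as a grey line, genes that carry a name in red and the 4-fold limit dashed. The curve falls from 398-fold to 4.01-fold with its widest step between the first gene and the second, at 123-fold, and the named genes begin at 15.6-fold.

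No gene of the window was at 0 reads in dek44, and 6 of its 5679 genes (0.106%) were near-absent there, below 1 RPKM; all 6 are in the set, as a ratio of 0.25 follows from such a level. The deepest loss was that of GRMZM2G331701, at 0.496 RPKM in dek44 and 197.2 RPKM in wild type, where it was also the most abundant of the 123. It was 398-fold lower (95% interval 193 to 990), from 7 reads in dek44 and 2567 reads in wild type. GRMZM2G078798 had 0.322 RPKM in dek44 and 39.6 RPKM in wild type, 123-fold lower (62.1 to 286).

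The other 4 near-absent genes had wild-type levels of 21.3 to 28.3 RPKM. GRMZM2G083156 had 0.248 RPKM in dek44 and 21.3 RPKM in wild type, 86.0-fold lower (43.4 to 200.2). GRMZM2G131888 had 0.409 RPKM in dek44 and 28.3 RPKM in wild type, 69.1-fold lower (26.7 to 256). AC234161.1_FG002 had 0.583 RPKM in dek44 and 26.8 RPKM in wild type, 45.96-fold lower (19.4 to 143). GRMZM2G009080 had 6 reads in dek44 and 205 reads in wild type, 37.0-fold lower (16.7 to 102.1). The dek44 values of the 6 rest on 4 to 8 reads each, and the intervals of neighbours in this order overlap.

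Deep losses with more reads in dek44 are better measured. GRMZM5G867256 had 2.40 RPKM in dek44 and 160.9 RPKM in wild type, 67.0-fold lower (53.1 to 85.8). GRMZM2G325118 had 2.36 RPKM in dek44 and 156 RPKM in wild type, 66.1-fold lower (51.5 to 86.2). GRMZM2G059700 had 1.37 RPKM in dek44 and 63.2 RPKM in wild type, 46.2-fold lower (35.6 to 61.0). These intervals span less than 2-fold, against about 5-fold for GRMZM2G331701, and the pair GRMZM5G867256 and GRMZM2G325118 cannot be told apart in loss.

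The remaining 4 genes over 20-fold lower ranged from GRMZM5G874369, at 37.9-fold, to 21.97-fold. GRMZM2G006219, at 26.3-fold, was among the most abundant of the set in wild type, at 7.01 RPKM in dek44 and 184.1 RPKM in wild type. GRMZM2G586611 was alike in level, at 12.7 RPKM in dek44 and 181.1 RPKM in wild type, 14.2-fold lower (10.3 to 20.1). A pair of other abundant genes kept more of their transcript. GRMZM2G025062 had 30.1 RPKM in dek44 and 194 RPKM in wild type, and GRMZM2G086030 had 35.5 RPKM in dek44 and 188.7 RPKM in wild type, 6.44-fold and 5.32-fold lower. At the other end of the set, 16 genes kept at least 20 RPKM in dek44.

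Identity is known for few of the set. Of the 123 identifiers 70 (56.9%) matched the reference gene table, against 68.4% of the other 5556 genes of the window, and 14 (11.4%) carried a gene name and not just the number of a locus, clone or marker, against 10.3%. None of the 13 genes over 20-fold lower was named, and 3 of the 34 that were at least 10-fold lower were. The named genes had a median loss of 5.31-fold and a range of 4.01-fold to 15.6-fold, so the values by function below describe the milder part of the set.

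**Figure D4:**
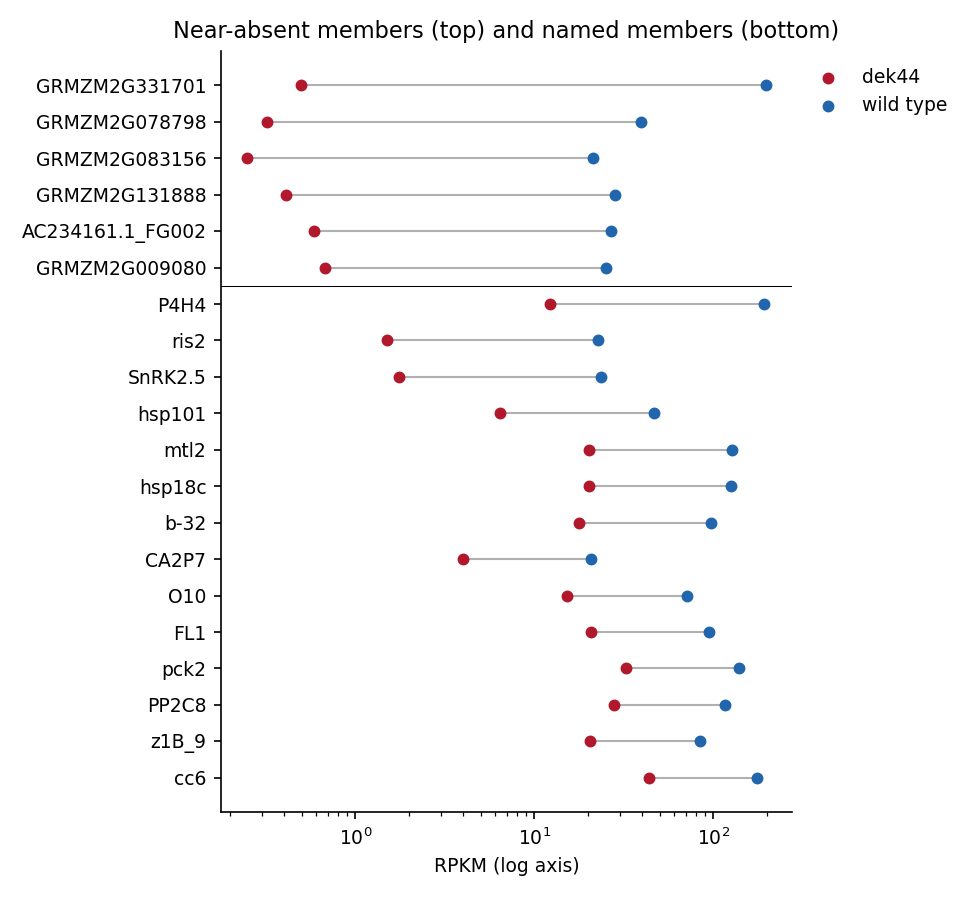
RPKM (horizontal, log axis) in dek44 (red) and wild type (blue) of the 6 near-absent genes, above the line, and of the 14 named genes, below it. The near-absent genes lie below 1 RPKM in dek44, whereas the named ones lie between 1.50 and 43.6 RPKM there.

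Genes that serve zein storage were among the named. FL1 (GRMZM2G094532, Floury1), whose product sits in the protein body membrane and helps to place alpha zeins there, had 20.7 RPKM in dek44 and 94.5 RPKM in wild type, 4.57-fold lower (3.93 to 5.33). O10 (GRMZM2G346263, Opaque10), another protein body protein needed for the ordered layout of zeins, had 15.1 RPKM in dek44 and 70.8 RPKM in wild type, 4.67-fold lower (4.11 to 5.33). The intervals of these 2 genes overlap over nearly their whole length. The alpha zein gene z1B_9 (GRMZM2G125130) had 20.4 RPKM in dek44 and 84.3 RPKM in wild type, 4.13-fold lower (3.40 to 5.04), and was the only one of 29 zeins found by name that fell in the window. Of the 23 zeins above the window 22 had a ratio of 0.25 or less, and of the 5 below it 4 did. The related z1B_7 (GRMZM2G309832) had 1.88 RPKM in dek44 and 7.75 RPKM in wild type. z1B_8 (GRMZM2G025763) went the other way, at 1.39 RPKM in dek44 and 0.603 RPKM in wild type. Zein copies are near-identical and reads may have been shared among them, so values of single copies are uncertain.

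Of the 8 genes that carry a floury or opaque name, picked after the names in the set were seen, 5 had a ratio of 0.25 or less. The share was 2.37% among all genes with at least 1 RPKM in wild type and 35.7% among those at 1000 RPKM or more, where floury2, floury4 and fl3 lie. The 5 were FL1, O10, o2 (0.177), floury2 (0.149) and floury4 (0.0757). The others were fl3 (0.486), Opaque11 (0.909) and o7 (1.27). FL1 and O10 thus stood between o2, the bZIP activator of zein genes, and fl3 in loss.

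Seed defence genes in the set were b-32 (GRMZM2G063536, rip1), a ribosome-inactivating protein known as a target of Opaque2, and cc6. The b-32 gene had 17.7 RPKM in dek44 and 96.5 RPKM in wild type, 5.46-fold lower (4.87 to 6.13). Another model named RIP1 (GRMZM2G052546), below the window, had 14.9 RPKM in dek44 and 11.5 RPKM in wild type. It was thus higher in dek44, though not with the median ratio of expressed genes set to 1. The cystatin cc6, an inhibitor of papain-type cysteine proteases, had 43.6 RPKM in dek44 and 174.8 RPKM in wild type, 4.01-fold lower (3.63 to 4.42), and kept the highest dek44 level of the 123. Of the 7 genes of protease inhibitors and seed defence in the window, b-32 and cc6 were lost, beside 2.17% of all genes of the window. The median ratio of the 7 was 1.15. Inside and outside the window, 3 of the 23 expressed genes of this list had a ratio of 0.25 or less. As deposited, 11 of the 23 had a ratio of 4 or more, beside 3.38% of the genes of the window. Among the 9 cystatins expressed, cc10 (GRMZM2G030717), above the window, came closest to cc6, at 122 RPKM in dek44 and 457 RPKM in wild type. The other 7 cystatins had a ratio above 1, as did 4070 of the 5679 genes of the window. With the median ratio of expressed genes set to 1, 4 of them still did, beside 1869 of 5679. The highest was cc8 (GRMZM2G401374), at 89.4 RPKM in dek44 and 7.05 RPKM in wild type.

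Chaperones were split. The disaggregase gene hsp101 (GRMZM2G360681) had 6.41 RPKM in dek44 and 46.7 RPKM in wild type, and the small heat shock protein gene hsp18c (GRMZM2G034157) had 20.1 RPKM in dek44 and 124.8 RPKM in wild type, 6.21-fold lower (5.38 to 7.19). Of 14 expressed genes with an hsp name these 2 were at 0.25 or less, beside 2.37% of genes with at least 1 RPKM in wild type. Another 4 were at a ratio of 4 or more, beside 3.38% of the window, and the median ratio was 2.05. As deposited, 10 of the 14 were higher in dek44, a share near that of the window (4070 of 5679 genes). With the median ratio of expressed genes set to 1, 8 were higher, beside 1869 of 5679 genes of the window. The median ratio of the 14 was then 1.23. The small heat shock protein gene hsp18f (GRMZM2G083810) had 41.0 RPKM in dek44 and 49.4 RPKM in wild type. Over the whole heat shock list of 24 expressed genes the median log2 ratio was 0.87, beside 0.62 for all expressed genes, both as log2((dek44 RPKM + 1)/(wild-type RPKM + 1)).

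Signalling genes with names tied to abscisic acid and osmotic stress were also in the set. SnRK2.5 (GRMZM2G110908), of a family of protein kinases activated in these responses, had 1.74 RPKM in dek44 and 23.5 RPKM in wild type, 13.5-fold lower (9.86 to 18.8). The 5 other expressed SnRK2 genes had ratios from 0.428 for SnRK2.2 to 1.39 for SnRK2.6. PP2C8 (GRMZM2G019819), of the type 2C protein phosphatases, some of which hold SnRK2 kinases inactive, had 27.7 RPKM in dek44 and 116 RPKM in wild type, 4.19-fold lower (3.89 to 4.53). Of 18 expressed genes with a PP2C name, PP2C17 (GRMZM2G040452) was also below 0.25, from a wild-type level of 16.1 RPKM. Among all genes with at least 1 RPKM in wild type, 2.37% were at 0.25 or less. Of the 18, 13 had a ratio above 1, a share near that of the window (4070 of 5679 genes). With the median ratio of expressed genes set to 1, 7 of the 18 did, beside 1869 of 5679. SnRK2.5 and PP2C8 thus had the lowest and the second lowest ratio in their name families.

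CA2P7 (GRMZM2G126957), named as an NF-YA type subunit of the CCAAT-binding factor, had 3.997 RPKM in dek44 and 20.7 RPKM in wild type, 5.17-fold lower (4.05 to 6.68). Next to it among 8 expressed genes of that type was NF-YA7 (GRMZM2G040349), at 20.1 RPKM in dek44 and 77.4 RPKM in wild type, with a ratio of 0.2595 just outside the set. CA2P16 (GRMZM2G091964) lay at the other extreme, at 5.02 RPKM in dek44 and 0.484 RPKM in wild type.

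The remaining named genes included P4H4, pck2 and ris2. P4H4 (GRMZM5G843555), of the prolyl 4-hydroxylases that modify proline residues of secreted proteins, had 12.2 RPKM in dek44 and 190.8 RPKM in wild type, 15.6-fold lower (13.7 to 17.98). This was the largest value among the named genes, though the intervals of ris2 and SnRK2.5 include it. The 5 other genes with the P4H name stem had ratios from 0.7097 to 1.75. The phosphoenolpyruvate carboxykinase gene pck2 (GRMZM5G870932), whose product makes phosphoenolpyruvate from oxaloacetate, had 32.6 RPKM in dek44 and 138.5 RPKM in wild type, 4.25-fold lower (4.01 to 4.50). The gene ris2 (GRMZM2G162748), a name used for Rieske iron-sulfur proteins of cytochrome complexes, had 1.50 RPKM in dek44 and 22.6 RPKM in wild type, 15.1-fold lower (9.87 to 24.1). The last named gene, mtl2 (GRMZM2G402564), had 20.2 RPKM in dek44 and 127.3 RPKM in wild type, 6.30-fold lower (4.69 to 8.60).

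**Figure D5:**
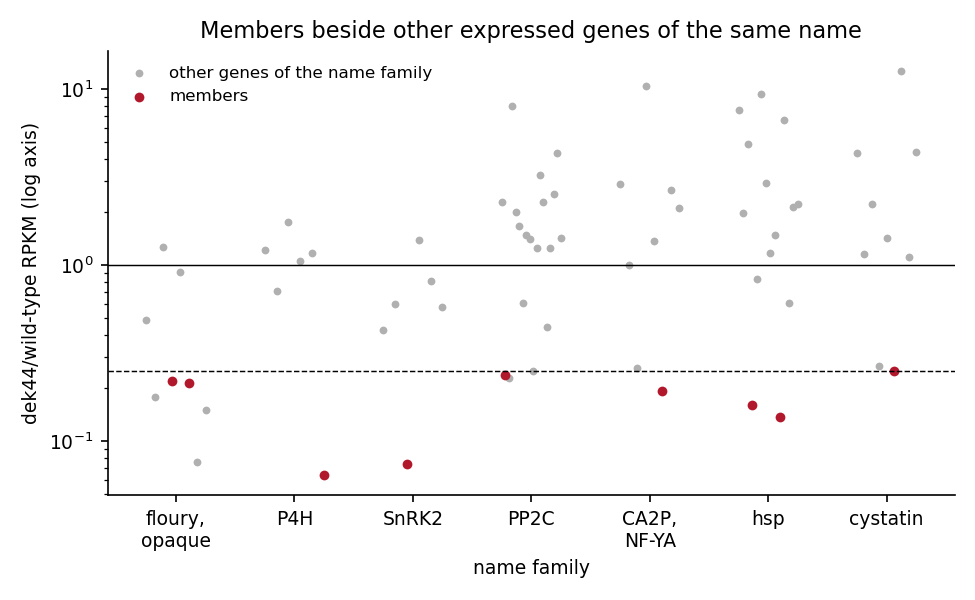
Ratio of dek44 to wild-type RPKM (vertical, log axis) of expressed genes in 7 name families (horizontal), with genes of the set in red, other genes in grey, a solid line at equal RPKM and a dashed line at 0.25. P4H4 and SnRK2.5 lie apart from the rest of their families, whereas the floury and opaque names have several genes below the dashed line.

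None of the genes of the other 7 lists was in the set. In the window, 0 of 6 genes matched as starch synthesis, sus1 among them, had a ratio of 0.25 or less, with a median ratio of 1.08, whereas 5 of 8 above the window did. The window also held 0 of 4 endosperm transcription factors at that ratio (median 0.644), 0 of 5 genes of amino acid metabolism (median 0.543), 0 of 3 of sucrose cleavage and sugar transport (median 3.82), 0 of 15 of endoplasmic reticulum folding (median 1.48), 0 of 5 of lipid transfer and metabolism (median 1.19) and 0 of 1 peptide and amino acid transporter (1.13). The sucrose synthase gene sus1 (GRMZM2G152908, ratio 3.82) was matched as starch synthesis through its synonym ss2 and is counted under sucrose cleavage as well. Without it, the starch synthesis genes of the window had ratios of 0.399, 0.813, 0.913, 1.24 and 1.37. These lists hold few genes of the window, of which 2.17% were in the set. The cytosolic glutamine synthetase gene gln2 (GRMZM2G024104) came nearest, at 41.1 RPKM in dek44 and 157 RPKM in wild type, a ratio of 0.261; it was singled out after its values were seen.

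Few of the genes that could be placed lay near another placed gene of the set. The 53 genes of the set without a match could not be placed, so neighbours among them would not be seen. Of the 70 genes placed in the order of the reference annotation, 2 (2.86%) had another gene of the set within 5 genes, against 51 of 3800 (1.34%) for the rest of the window. The pair was GRMZM2G106445, at 18.4 RPKM in dek44 and 74.1 RPKM in wild type, and the adjoining GRMZM2G106511, at 11.5 RPKM in dek44 and 61.7 RPKM in wild type. The losses were 4.02-fold (3.22 to 5.07) for GRMZM2G106445 and 5.34-fold (4.21 to 6.85) for GRMZM2G106511. The gene on one side of the pair, GRMZM2G106413, had a ratio of 0.938 and that on the other, GRMZM2G407146, had a ratio of 0.417. Whether the pair are copies of one gene that share reads was not tested.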

How the data were processed

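Gene expression was measured by RNA-seq in 1 dek44 and 1 wild-type endosperm library. The deposited values are RPKM per gene model, which the authors made from reads mapped by Bowtie 0.12.2; the submitters' processing notes name B73 RefGen_v3 as the genome build. How reads were counted, the gene lengths, the use of strand and the treatment of multiple matches are not given in the sources used. Near-identical copies, overlapping genes and antisense genes are therefore uncertain. The files were joined on the gene identifier and plain ratios taken with no pseudocount.

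Library totals were recovered from the RPKM values, since equal low counts share a ratio and low values step by whole reads. With them 39505 of 39505 genes above 0 fitted whole read numbers, to a tolerance of 0.0001 reads and a relative 1e-08, at some length of at least 100 bases. Steps of whole reads fix a total only up to a common factor. Earlier rules for that factor gave wrong totals for simulated libraries of unequal depth and were replaced, and the limit kept for a factor of 3 was set after the real values had been seen. At 3 times the totals used, whole lengths fell to 22.9% of genes in dek44 (44.8% at the total used) and to 36.1% in wild type (65.8%), between what a right and a wrong factor gives when lengths have no preferred divisor; 49.2% of the lengths found were divisible by 3. The smaller totals were kept, which give the wider intervals; ratios do not depend on this. Of 1201 lengths tested, 43.8% were even. Reads are the smallest that fit and may be a divisor of the true number. The kept rule was tested on simulated data of 41406 genes, and totals were given back in 12 of 12 runs, 6 of them with extra lengths divisible by 3, with reads exact for at least 80.3% of 4000 genes. Ratios carry exact conditional (Clopper-Pearson) 95% intervals.

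Gene symbols were read from RefSeq's table for Zm-B73-REFERENCE-NAM-5.0 (16689 of 41406 identifiers matched), another build, so no coordinates are given. Lists and name families were found by symbol. The set and the lists were chosen with earlier results of these data known. Genes named were the 10 lowest ratios, the 6 highest wild-type levels, genes with a symbol, those at each limit and neighbouring pairs; further genes of name families and lists were chosen after their values were seen. Promoters and proteins were not analysed here, nor was the identity of the dek44 gene. Alternatives were other scalings, a pseudocount of 1, other limits and other neighbour distances. Python 3.11.15, scipy 1.17.1 and pandas 2.3.3 were used.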

Additional observations from a re-analysis of the deposited data

How the results depend on the processing

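The number of genes in the set depends on the scaling and on the limits. It was 123 as reported, 278 with the median ratio of expressed genes set to 1 and 240 with RPKM scaled without the 100 most abundant genes; all 123 stayed in the set under both, since these scalings lower every dek44 value by 1 factor. It was 107 with a pseudocount of 1, 83 at a ratio of 0.2, 380 at a ratio of 0.5, 181 with a window from 10 RPKM, 56 with a window from 50 RPKM, and 86 when the whole counting interval had to lie at or below 0.25. The share of the window was 4.90% under the median scaling and 1.88% with a pseudocount of 1, against 2.17% as reported. The median loss of the 123 genes was 10.4-fold under the median scaling and 5.68-fold with a pseudocount of 1. Near-absent genes, 6 as reported, numbered 13 below 2 RPKM, 4 below 0.5 RPKM and 11 when scaled without the 100 most abundant genes. The neighbouring pair stayed with a distance of 2 genes. Of 33 genes of the set chosen by the rule for description, 13 moved beyond their counting interval with a pseudocount of 1. Scaling without the most abundant genes moved 26, and the median scaling moved 27. None of these settings could place a gene of the set higher in dek44 than in wild type. The number of window genes at a ratio of 4 or more, 192 as reported, was 59 under the median scaling and 72 when scaled without the 100 most abundant genes, both chosen after seeing the data. Depth limits the genes with few dek44 reads, among them the near-absent ones with 4 to 8 reads each. Promoter motifs and related proteins were not run. No paired analysis was possible because only 1 library per genotype was used.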
